A study of Arabidopsis thaliana with 4 samples.

Results

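The circadian clock of Arabidopsis thaliana was followed through 9 probe sets, 1 for each of 9 clock genes, out of 22746 probe sets on the array. They were chosen by probe set identifier, for the genes CIRCADIAN CLOCK ASSOCIATED 1 (CCA1), LATE ELONGATED HYPOCOTYL (LHY), TIMING OF CAB EXPRESSION 1 (TOC1), GIGANTEA (GI), 4 further pseudo-response regulators (PRR9, PRR7, PRR5 and PRR3) and GLYCINE-RICH RNA-BINDING PROTEIN 7 (GRP7, also called CCR2). The rule uses no measured value. The gene names are those of the list that chose the probe sets. The probe set annotation used here holds only 1 of the 9, GI, and there it gives the same name.

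RNA came from shoot apices with leaf primordia, 1 array for each of 4 groups. Wild-type Col-0 plants were grown with the solvent DMSO (Col-0 DMSO) or with 10-hydroxycamptothecin (Col-0 10H-CPT), an inhibitor of DNA topoisomerase I. Plants carrying as2-1, a mutant allele of the leaf polarity gene AS2 in the Col-0 background, were likewise grown on DMSO (as2-1 DMSO) or on the inhibitor (as2-1 10H-CPT). All were kept on agar medium for 14 days in long days of 16 hours of light and 8 hours of dark. The labels name no dose and no hour of harvest. There are no replicates, so no value below carries a spread between samples, and a difference in harvest hour between the arrays and the effect of a group cannot be told apart.

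The plant clock is a set of genes that repress and activate each other in turn over the day. CCA1 and LHY, a pair of MYB-like transcription factors, peak at dawn and repress the evening genes, TOC1 and GI among them. PRR9, PRR7 and PRR5 follow one another from morning to afternoon and repress CCA1 and LHY, and TOC1 takes over that repression in the evening. GI, a large plant-specific protein, peaks late in the day, helps to control the stability of TOC1 protein and promotes flowering in long days. PRR3 is an evening-expressed partner of TOC1, and GRP7 is an RNA-binding protein with an evening peak that the clock drives as an output.

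The 4 arrays were at one level, with median signals from 86.0 to 88.3. Signals are MAS5 intensities, a summary of the probes of 1 probe set, and were compared between arrays only within a probe set. Signals under a floor of 46.6, the 40th percentile of all signals, were treated as not measured, and a ratio with 1 side under it is given as a bound ("at least"). The tissue label could be checked on few markers: of the listed shoot apex and leaf primordium genes, 2 had a named probe set. YAB3, which specifies the lower leaf side, had signals from 180.1 to 254.1, while CLV3, a stem cell peptide of a few meristem cells, lay below the floor on all 4 arrays. EXPA7, a root hair gene and the single root marker with a named probe set, was below it too (2.7 to 9.2). AS2 and the topoisomerase I genes were listed as a check of the labels, but none of these 3 genes had a named probe set, so the check could not be made.

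The 3 dawn and morning genes were below the floor on every array, and the evening genes were above it on every array. CCA1 (266719_at, AT2G46830) gave 20.6 on the Col-0 DMSO array, 28.5 on Col-0 10H-CPT, 13.9 on as2-1 DMSO and 35.8 on as2-1 10H-CPT. LHY (261569_at, AT1G01060) had signals of 7.3, 8.6, 15.1 and 32.8 in the same order. PRR9 (266720_s_at, AT2G46790) had 11.4, 17.9, 14.3 and 23.5, from a probe set whose suffix marks it as able to match more than 1 transcript. None of these 12 signals reached the floor, so at this floor these genes have no fold and their signals no order. With the floor lowered to the 20th percentile of all signals (9.90), the 10H-CPT signal in as2-1 was 2.57-fold (CCA1) and 2.17-fold (LHY) above the DMSO signal. In Col-0 it was 1.39-fold above for CCA1, and both LHY signals were still under the floor. For PRR9 the 10H-CPT signal was above the DMSO signal by similar folds, 1.57-fold in Col-0 and 1.64-fold in as2-1. In as2-1, 3.90% of the 19255 probe sets then measured were higher by 2-fold or more.

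Of the day genes, PRR7 (250971_at, AT5G02810) gave 262.2 on Col-0 DMSO, 88.9 on Col-0 10H-CPT, 166.3 on as2-1 DMSO and 44.8 on as2-1 10H-CPT. Both arrays with the inhibitor were below both DMSO arrays, and the last signal lay just under the floor. PRR5 (249741_at, AT5G24470) had signals of 190.8, 86.0, 188.4 and 146.5 in the same order. Here too both inhibitor arrays were below both DMSO arrays. The genotypes were nearly equal on DMSO, and Col-0 on 10H-CPT was the low one.

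Among the evening genes, GI (264211_at, AT1G22770) varied most, at 548.4 on Col-0 DMSO, 173.3 on Col-0 10H-CPT, 413.3 on as2-1 DMSO and 64.9 on as2-1 10H-CPT. Its highest signal was 8.45 times its lowest, and the inhibitor arrays again lay below both DMSO arrays. The order of the 4 arrays, from Col-0 on DMSO down to as2-1 on 10H-CPT, was the same for GI and PRR7.

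The other evening genes varied far less. TOC1 (247525_at, AT5G61380) had signals of 557.5, 452.2, 676.7 and 484.0 in the order used above. PRR3 (247668_at, AT5G60100) had 240.4, 190.7, 282.1 and 175.2. GRP7 (263548_at, AT2G21660) had 10831.7, 9565.3, 13393.3 and 8767.4. For all 3 genes as2-1 on DMSO was the highest array and Col-0 on DMSO the next, and the highest signal was at most 1.61 times the lowest.

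**Figure D1:**
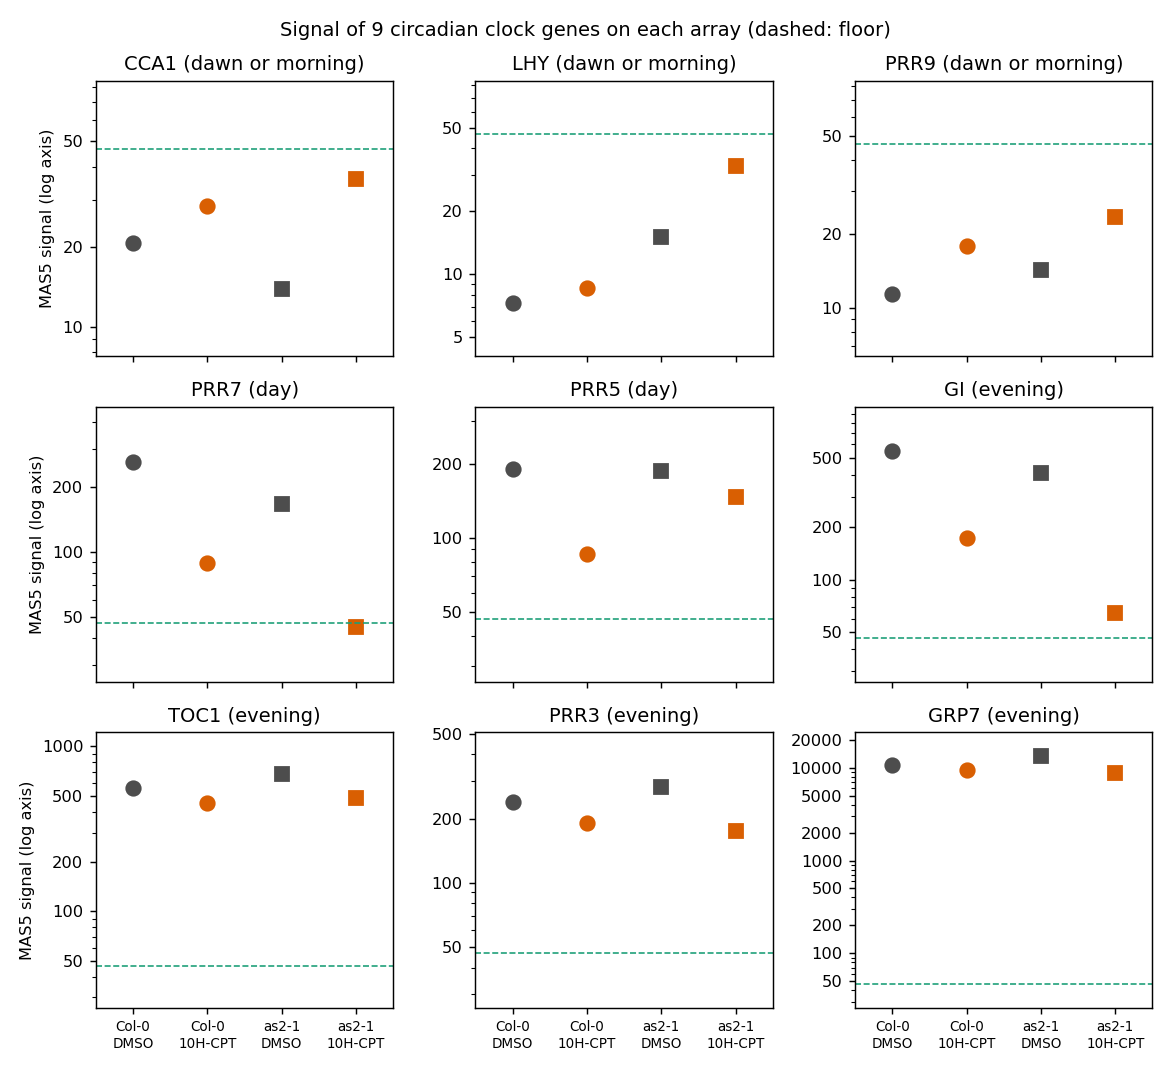
MAS5 signal (log axis) of each of the 9 clock genes on each of the 4 arrays, 1 point per array, with circles for Col-0, squares for as2-1, grey for DMSO and orange for 10H-CPT; the dashed line is the floor of 46.6. CCA1, LHY and PRR9 lie below the floor throughout, and for the 6 other genes both orange points lie below both grey ones.

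The first comparison asked what the topoisomerase I inhibitor did to the clock genes in each genotype. All 6 measured clock genes had lower signals on 10H-CPT than on DMSO in both genotypes, in 12 of 12 ratios, and CCA1, LHY and PRR9 are in none of these counts. Of the 13748 probe sets measured in both genotypes, 33.6% were lower in both by any amount. In Col-0, 3 of the 6 were at least 2-fold lower, where 2.10% of all measured probe sets were, and none was at least 2-fold higher, against 1.55%. GI was 3.16-fold lower, PRR7 2.95-fold lower and PRR5 2.22-fold lower. PRR3 was 1.26-fold lower, TOC1 1.23-fold and GRP7 1.13-fold. The median log2 change of the 6 genes was -0.74, beside -0.0067 over all 14091 probe sets measured in that pair.

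In as2-1, 2 of the 6 were at least 2-fold lower on the inhibitor, against 2.30% of all measured probe sets, and none was at least 2-fold higher, against 2.96%. GI was 6.38-fold lower and PRR7 at least 3.57-fold lower. PRR3 was 1.61-fold lower, GRP7 1.53-fold, TOC1 1.40-fold and PRR5 1.29-fold. The median log2 change was -0.65, beside -0.021 over all 14244 measured probe sets. Only GI and PRR7 passed 2-fold in both genotypes, as did 0.989% of the probe sets measured in both. The pairs in Col-0 and in as2-1 share no array.

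**Figure D2:**
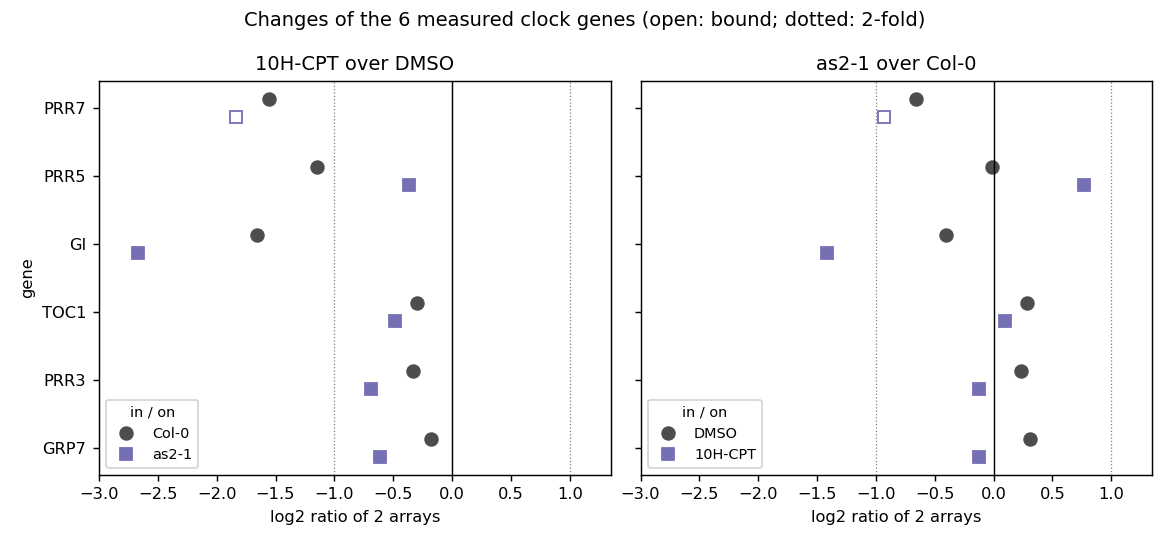
Log2 ratio of 2 arrays for the 6 measured clock genes, for 10H-CPT over DMSO in each genotype (left) and for as2-1 over Col-0 in each treatment (right); open symbols are bounds, because 1 of the signals was under the floor, and dotted lines mark 2-fold. All points on the left lie below 0, with GI at -1.66 and -2.67, while the points on the right fall on both sides of 0.

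Averaged over the genotypes, GI and PRR7 fell on 10H-CPT in the additive limma fit over both factors, which called 2 of the 6 clock genes tested as lower and none as higher. In that fit, 1.66% of the 13767 probe sets tested were called lower and 1.31% higher at an adjusted p of 0.05. The treatment effect on GI was -2.17 ± 0.26 (SE) on the log2 scale, a 4.49-fold decrease, with a limma adjusted p of 0.0124. That effect averages log2 changes of -1.66 in Col-0 and -2.67 in as2-1, which the additive model takes as the same but for error. It stood at rank 20 from the lowest of the 13767. For PRR7 it was -1.70 ± 0.18 (SE), 3.24-fold, with a limma adjusted p of 0.0103, with the signal of as2-1 on 10H-CPT set to the floor. With the floor at the 20th percentile the limma adjusted p rose to 0.124 for both genes and the fit called no probe set at all, although 2586 of 18162 had an unadjusted p below 0.05. Over the alternatives, the limma adjusted p of this effect went from 0.00350 to 0.124 for GI and from 0.00520 to 0.163 for PRR7. The error of this fit is the departure from additivity over the 4 arrays, with 1 residual degree of freedom. Limma's eBayes step draws it towards a value shared by all probe sets tested, which carries 5.93 prior degrees of freedom. It is not a spread between replicate plants.

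The other 4 genes did not pass the test. The treatment effect of PRR5 was -0.76 ± 0.23 (SE) with a limma adjusted p of 0.153, and that of PRR3 was -0.51 ± 0.19 with 0.230. TOC1 was at -0.39 ± 0.18 and GRP7 at -0.40 ± 0.19, with limma adjusted p-values of 0.320 and 0.359. CCA1, LHY and PRR9 did not enter the fit, since their mean signals were below the floor.

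**Figure D3:**
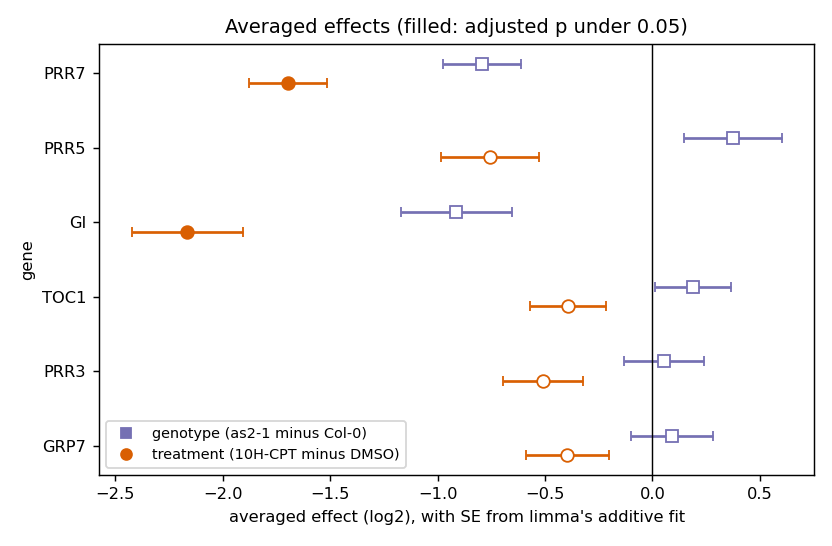
Averaged genotype and treatment effects (log2, with SE from limma's additive fit over the 4 arrays) of the 6 clock genes tested; filled symbols have an adjusted p under 0.05. The treatment effects of GI (-2.17) and PRR7 (-1.70) are the filled ones, and no genotype effect is filled.

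The second comparison asked whether the clock genes differed in the as2-1 mutant. On DMSO none of the 6 measured clock genes was 2-fold apart between the genotypes. That size of difference was seen for 1.04% of the 14069 measured probe sets upwards and for 1.09% downwards. PRR7 was 1.57-fold lower in as2-1 and GI 1.33-fold lower, and PRR5 was within 1.01-fold. The 3 weakly varying evening genes were slightly higher in as2-1, by 1.24-fold for GRP7, 1.22-fold for TOC1 and 1.17-fold for PRR3. The median log2 change of the 6 was 0.11, beside 0.0079 over all measured probe sets.

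On 10H-CPT, 1 of the 6 passed 2-fold between the genotypes. GI was 2.67-fold lower in as2-1, where 1.57% of all measured probe sets were lower by 2-fold or more and 2.69% higher. PRR7 was at least 1.91-fold lower, and PRR5 was 1.70-fold higher. TOC1, PRR3 and GRP7 were within 1.09-fold of Col-0. The median log2 change of the 6 was -0.13, beside -0.0070 over all 14147 measured probe sets.

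Averaged over the treatments, limma called 0 of the 6 clock genes for genotype, where it called 0.138% of all probe sets tested higher and 0.283% lower. At an unadjusted limma p below 0.05 there were 2, GI and PRR7, beside 12.8% of all probe sets tested. The genotype effect on GI was -0.91 ± 0.26 (SE) on the log2 scale with a limma adjusted p of 0.212, and that on PRR7 was -0.79 ± 0.18 with 0.141. The effect of PRR5 was 0.38 ± 0.23, and those of TOC1, GRP7 and PRR3 were 0.19 ± 0.18, 0.09 ± 0.19 and 0.054 ± 0.19, with limma adjusted p-values from 0.557 to 0.944 for the 4 genes.

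The treated mutant was then set against the untreated wild type. All 6 measured clock genes had lower signals in as2-1 on 10H-CPT than in Col-0 on DMSO, as did 51.5% of all measured probe sets. That count follows from the signals given above, where both inhibitor arrays lay below both DMSO arrays, and is no separate result. GI was 8.45-fold lower and PRR7 at least 5.62-fold lower, and 3.53% of all 14269 measured probe sets were at least 2-fold lower in that comparison. The other 4 were between 1.15-fold lower (TOC1) and 1.37-fold lower (PRR3), with GRP7 at 1.24-fold and PRR5 between these bounds.

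The last comparison asked whether the change on the inhibitor depended on the genotype, which 1 array per group leaves without a test. The log2 change of GI on 10H-CPT was lower in as2-1 than in Col-0 by a difference of -1.01 (2.02-fold). For 1.29% of 14587 probe sets such a difference was at least 2-fold in that direction. PRR5 went the other way, with a difference of 0.78, since its signal dropped less in as2-1. The differences of PRR7, TOC1, PRR3 and GRP7 were -0.28, -0.18, -0.36 and -0.44, that of PRR7 with 1 signal set to the floor. Over all 14587 probe sets, the size of this difference had a median of 0.26 and a 90th percentile of 0.72, so that GI and PRR5 lay above the latter.

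The wider clock could be followed for few genes. Of 51 further genes on a list of clock components, regulators and outputs, 8 had a probe set named in the annotation, and none of the evening complex (ELF3, ELF4, LUX and BOA), the LNK genes or the F-box photoreceptors did. On 10H-CPT, 1 of 8 measured genes in Col-0 and 0 of 7 in as2-1 were at least 2-fold lower. None was at least 2-fold higher in either, beside the shares of all probe sets given above. The 8 in Col-0 include AT1G69570, whose change is known only as a bound (at least 1.32-fold lower). By any size, 6 of 8 were lower in Col-0 and 3 of 7 in as2-1, with median log2 changes of -0.36 and 0.06. Of all measured probe sets, 50.8% were lower by any size in Col-0 and 52.5% in as2-1. The 1 that passed was AT4G33980 (253322_at), a locus entered in the list as an evening output, at 300.8 on Col-0 DMSO, 121.0 on Col-0 10H-CPT, 341.0 on as2-1 DMSO and 183.3 on as2-1 10H-CPT. Both inhibitor arrays were below both DMSO arrays, by 2.48-fold in Col-0 and 1.86-fold in as2-1. It was also the only 1 of 7 tested that limma called for treatment, with an effect of -1.10 ± 0.19 (SE) on the log2 scale and a limma adjusted p of 0.0346. Of all probe sets tested, 1.66% were called lower. With the floor at the 20th percentile the fit called no probe set for treatment, so the call on AT4G33980 was lost too.

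COR27 (249174_at), a cold-induced evening gene that acts back on the clock, had signals of 616.0, 424.8, 986.1 and 767.6 in the same order. Its signals were higher in as2-1 than in Col-0, with log2 differences of 0.68 on DMSO and 0.85 on 10H-CPT, and the genotype effect of 0.77 ± 0.18 (SE) did not pass, with a limma adjusted p of 0.143. TIC (258444_at), a nuclear regulator of the clock, stayed between 465.5 and 604.4. XCT, FIO1, AT4G01280 and AT5G52660, the last a pair listed with the REVEILLE relatives of CCA1 and LHY, stayed under 2-fold in all 4 comparisons, at most 1.93-fold, for AT4G01280, which was higher in as2-1 on 10H-CPT. In as2-1, AT4G01280 was 1.84-fold higher on 10H-CPT than with DMSO. AT1G69570 had signals of 61.7, 21.3, 27.1 and 12.0 in the same order, and only the first was above the floor. Against that first array it was at least 1.32-fold lower on the Col-0 10H-CPT array, and by the same bound on the as2-1 DMSO array. The floor sets both bounds, so they cannot show whether the gene changed by 2-fold. It was counted as not past 2-fold in both comparisons. Of the genotype effects of the 7 genes tested, limma called none, beside 0.138% of all probe sets tested called higher and 0.283% lower. At least 2-fold changes between the genotypes numbered 0 of 8 on DMSO and 0 of 7 on 10H-CPT. Among all measured probe sets, 1.04% were higher and 1.09% lower by that size on DMSO, and 2.69% and 1.57% on 10H-CPT.

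The named genes nearest to GI in pattern were sought among 6844 probe sets that had 1 gene name and were above the floor on all 4 arrays. Likeness was the root mean square distance over the 4 arrays between log2 signals, each centred on its own mean, on which a smaller value means a closer match. The nearest was AT4G27450 (253874_at) at 0.15, at 2677.4 on Col-0 DMSO, 977.3 on Col-0 10H-CPT, 2492.3 on as2-1 DMSO and 421.3 on as2-1 10H-CPT. AT4G10270 (255807_at) followed at 0.20, with 774.0, 284.6, 802.1 and 89.1 in the same order. EXLA1 (252563_at), an expansin-like gene, was at 0.38, with 309.1, 118.6, 163.5 and 51.9. All 3 had their lowest signal in as2-1 on 10H-CPT and the next in Col-0 on 10H-CPT, as GI did. With 4 arrays such a likeness is a description and no more. No such search was made for CCA1 and LHY, whose signals were all below the floor.

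**Figure D4:**
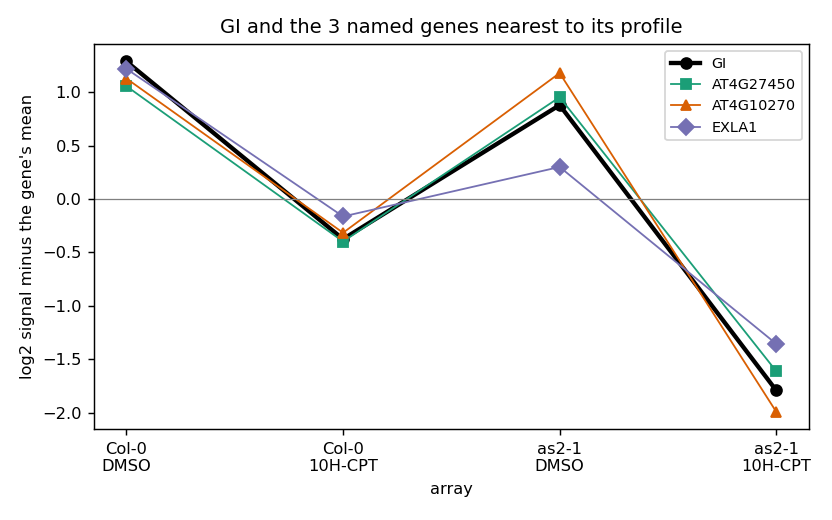
Log2 signal on each array, centred on the gene's mean over the 4 arrays, for GI (black) and the 3 named genes nearest to its profile, AT4G27450, AT4G10270 and EXLA1. All 4 lines are lowest in as2-1 on 10H-CPT, where the signal of GI was 64.9.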

How the data were processed

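Biotin-labelled cRNA from shoot apices was measured on Affymetrix arrays, as the labels' protocols state. The deposited values are MAS5 signal intensities on a linear scale, and MAS5 is named in the submitters' processing notes; neither its version nor its scaling is given in the sources used here. Arrays were rescaled to one mean, trimmed by 2% at each end, signals below the 40th percentile of all signals (46.6) were set to that floor, and log2 was taken. Averaged effects were tested over the 13767 probe sets whose mean signal exceeded the floor, by limma 3.58.1 in R 4.3.3 (additive model of genotype and treatment, eBayes, Benjamini-Hochberg adjustment over all of them, threshold 0.05). The fit has 1 residual and 5.93 prior degrees of freedom and was tested on simulated data that followed its own model, which says nothing of how well that model describes these arrays. Ratios of single arrays were described by a 2-fold threshold with no test. Precision is limited by the number of arrays.

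Python 3.11.15 with numpy 2.4.6, pandas 2.3.3 and matplotlib 3.10.9 made counts and figures. The platform annotation pairs 13513 of the 22746 probe sets with 1 gene and 503 with several, and 8730 are unnamed here. Gene identifiers were matched to RefSeq genes (TAIR10.1) by gene ID, or by symbol for the 9 clock genes. All 9 clock genes are named. Other clock genes were to be named if past 2-fold in at least 1 comparison, together with the evening complex, which could not be followed, and the 3 probe sets nearest in pattern to CCA1 with LHY and to the widest-ranging other gene; the clock genes named beside AT4G33980 and the tissue markers stand outside that rule and were named after their values were seen. The genes, lists and rules were chosen with earlier results of these data known. Alternatives were floors at the 20th or the 60th percentile, quantile normalization, no rescaling, a 1.5-fold threshold, and eBayes with trend and robust settings. For the fit, the values as deposited were added after seeing the data.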

Additional observations from a re-analysis of the deposited data

Results flagged for a closer look

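For 3 of the 5 clock genes above the floor on all 4 arrays, the difference between the genotypes had opposite signs in the 2 treatments, on 1 array each and with no test of the difference. The same held for 40.8% of the 12717 probe sets that passed the same filter, so the count is close to the share over all probe sets. The log2 change of PRR5 in as2-1 against Col-0 was 0.77 on 10H-CPT and -0.016 on DMSO. That of PRR3 was -0.12 on 10H-CPT and 0.23 on DMSO, and that of GRP7 was -0.13 and 0.31. After quantile normalization the change of GRP7 was -0.066 on 10H-CPT and 0.0 on DMSO, so its opposite signs did not hold in that setting. Only the change of PRR5 on 10H-CPT was past 1.5-fold, and none was past 2-fold.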

How the results depend on the processing

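Values as deposited and quantile normalization kept every count of clock genes past 2-fold and every count of clock genes called by limma. The rescaling factors lay between 0.9994 and 1.0006. The values as deposited were therefore nearly those of the main setting, and their agreement with it tests little. All 36 changes of single clock genes between 2 arrays stayed within 0.5 on the log2 scale. The 1.5-fold threshold was not run with either of these settings. After quantile normalization the log2 change of GRP7 on the inhibitor in as2-1 was -0.24, in place of -0.61. The floor decided more. With the floor at the 20th percentile, 7 of 36 changes moved by more than 0.5, all of genes under the usual floor. The counts past 2-fold became 2 between the genotypes on 10H-CPT (LHY added, with its Col-0 signal under that floor too; 3.68% of all probe sets were higher and 2.59% lower) and 4 on the inhibitor in as2-1 (CCA1 and LHY added; 3.90% higher and 4.22% lower), and limma called 0 clock genes for treatment. With the floor at the 60th percentile (137.3), 7 of 36 changes of PRR7, PRR5 and GI moved, since their low signals were set to it. The counts became 0 between the genotypes on 10H-CPT, 1 on the inhibitor in Col-0, 1 in as2-1, and 1 in limma for treatment, GI lower in the last 3, where 1.39%, 1.54% and 1.77% of all probe sets were lower. With a 1.5-fold threshold the counts were 1 between the genotypes on DMSO (PRR7 lower; 4.24% of all probe sets were lower), 3 on 10H-CPT (GI and PRR7 lower, PRR5 higher; 6.69% lower and 8.26% higher) and 4 on the inhibitor in as2-1 (GI, PRR7, PRR3 and GRP7 lower; 7.58% lower). Limma called 0 clock genes for genotype in every setting run. Over all probe sets, its calls for genotype numbered 58, and 17 after quantile normalization, 0 with the lower floor, 102 with the higher and 115 with trend and robust settings; for treatment they numbered 409, and 0 with the lower floor. No sign of a change past 2-fold was reversed. No paired analysis was possible because each group has 1 array and no replicate number; the additive fit already compares the treatments within each genotype. Dim signals limit CCA1, LHY and PRR9 throughout.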
